A study of Mus musculus with 4 samples.

Results

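The subject here is a set of 47 genes that copy DNA or divide cells, read in RNA sequencing counts of mouse colonic epithelial cells. They were chosen by symbol from textbook cell cycle genes, and each symbol matched 1 row of the deposited table of 31227 genes. By the phase in which they act, 25 belong to DNA replication and S phase and 22 to G2 and mitosis. All animals received dextran sulfate sodium (DSS), which injures the lining of the colon, at 3.5% in their water for 5 days, then had plain water, and were killed on day 7 at an age of 8 to 10 weeks. The controls were wild type (WT, 2 libraries, replicates 1 and 3), and the other genotype lacked Smad4 in the epithelium (Smad4 KO, 2 libraries, replicates 1 and 2). For the deletion, the sources used here name neither the allele nor the promoter that drives it. Both groups had DSS, and no library without it was analysed here, so the comparison is between genotypes and not an effect of DSS.

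Colonic epithelium renews itself from cells at and above the crypt base that divide repeatedly before they differentiate. DNA is first licensed for copying by loading the Mcm2 to Mcm7 helicase ring at origins, then unwound and copied around the sliding clamp Pcna, and in mitosis the cyclin B kinase Cdk1, Plk1 and the Aurora kinases drive chromosomes apart. Transcripts of these genes rise and fall with the cycle, so in a tissue their level is commonly read as a measure of how many cells are dividing. In bulk RNA, fewer dividing cells and less RNA per dividing cell cannot be told apart. TGF-β, whose signals pass through Smad4, is a textbook brake on epithelial cell division.

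The level of Smad4 itself was 152 and 180 CPM in WT against 51.5 and 41.1 CPM in KO (log2 fold change -1.84, edgeR adjusted p = 0.00163), in the direction of the labels in all 4. CPM is the usual depth-scaled count, computed here on library sizes scaled by edgeR's TMM method. The libraries held 42577920 to 67927291 counts, and a count of 1 stood for 0.0150 to 0.0229 CPM. Separate mice for the libraries are not stated in the labels, so p-values measure only how far these libraries vary, possibly for technical reasons. Over all tested genes 8.83% rose and 6.40% fell in edgeR, the shares to set beside the counts of cell type markers that follow. The 12 epithelial markers summed to 19270 to 20640 CPM per library, led by the keratin Krt8 at 5580 to 6201 CPM. In edgeR 6 of the 12 rose and 1 fell. By edgeR's likelihood ratio test 2 rose and 0 fell, against 10.7% and 7.14% of all tested genes. The 6 markers of all white blood cells summed to 19.98 and 18.4 CPM in WT and to 49.4 and 57.2 CPM in KO, and 5 of them rose in edgeR, among them Ptprc (6.77 and 7.13 CPM in WT, 16.4 and 19.4 CPM in KO). Neutrophil markers summed to 129.9 and 103 CPM in WT and to 439.5 and 427 CPM in KO, with 5 of 7 measured risen and Mpo, Elane and Camp at 0 in every library. Ly6g carried most of that sum (116 and 93.3 CPM in WT, 329.6 and 319 CPM in KO). Without it the sums were 13.6 and 9.75 CPM in WT and 109.9 and 108 CPM in KO. T and NK cell markers summed to 4.36 and 5.60 CPM in WT and to 13.6 CPM in each KO library, with 2 of 9 tested risen and Cd8a the highest (1.22 to 4.18 CPM). Fibroblast markers summed to 31.0 and 32.1 CPM in WT and to 57.0 and 62.3 CPM in KO, with 2 of 9 tested risen and Fbln1 the highest (9.73 to 34.7 CPM). Macrophage markers, of which 3 of 10 rose, summed to 174 and 193 CPM in WT and to 186 and 181 CPM in KO. Their most abundant gene, Cd14, had 159 and 181 CPM in WT and 136 and 134 CPM in KO, did not pass in edgeR (adjusted p = 0.0550), and passed as fallen in DESeq2 and limma-voom; without it the WT sums were 15.2 and 11.8 CPM and the KO sums 49.9 and 47.2 CPM. In edgeR 0 of 4 tested B and plasma cell markers, 0 of 7 endothelial and 0 of 6 smooth muscle markers passed (1, 0 and 1 at an unadjusted p under 0.05), and none was called by DESeq2 or limma-voom. The most abundant of these were Sdc1 (224 to 276 CPM), which epithelial cells also express, Vwf (3.61 to 5.85 CPM) and Tagln (1.45 to 3.93 CPM). The part of these cells in the cell cycle values below was not tested.

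The replication and mitosis genes differed little between the genotypes. Of the 47 genes, 1 rose in KO (Rrm2), 1 fell (Mki67) and 45 did not pass, where a pass is an adjusted p under 0.05 in edgeR's quasi-likelihood test, adjusted over all 15838 tested genes. Over all tested genes 15.2% passed, 8.83% as risen and 6.40% as fallen. DESeq2 called 1 of the 47 as risen and 2 as fallen (all tested genes 12.1% and 9.62%), limma-voom 1 and 1 (9.52% and 7.15%), and edgeR's likelihood ratio test 1 and 0 (10.7% and 7.14%). At an unadjusted p under 0.05 there were 5 of the 47 genes, against 29.9% of all tested genes. Their median absolute log2 fold change was 0.12, against 0.27 over all tested genes. The log2 fold changes ran from -0.47 for Cdt1 to 0.44 for Rrm2, and 41 of the 47 were under 0.25 in size, against 47.9% of all tested genes.

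**Figure D1:**
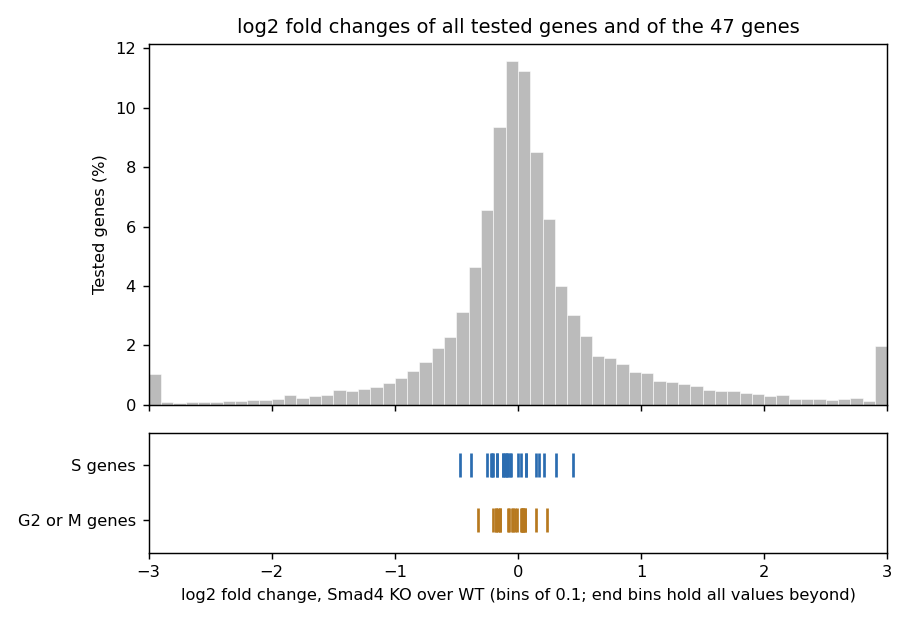
The upper panel plots the share of the 15838 tested genes in each bin of log2 fold change (Smad4 KO over WT), and the lower panel marks the 25 S genes and the 22 G2 or M genes on the same axis. All 47 marks lie between -0.47 and 0.44, inside the central part of the distribution.

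How large a difference the data leave room for was read from the 95% interval of each fold change. In 43 of the 47 genes the whole interval lay within 1.5-fold either way, against 41.4% of all tested genes, and in 46 within 2-fold, against 60.4%. The exceptions at 1.5-fold were Cdt1, Pola1, Rrm2 and Gins2, and Gins2 was also the exception at 2-fold. These genes are well covered, with 327 to 19240 counts per gene and library. Their lowest mean level was 7.155 CPM, against 0.0907 CPM over all tested genes. The shares of all tested genes given here and above are therefore not matched for level. A p that misses the threshold does not show that a gene is equal in the genotypes. The intervals give the sizes that remain possible given how far these libraries vary. Like the p-values, they rest on 2 libraries per genotype that may not be separate mice, so they do not bound the difference across mice.

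**Figure D2:**
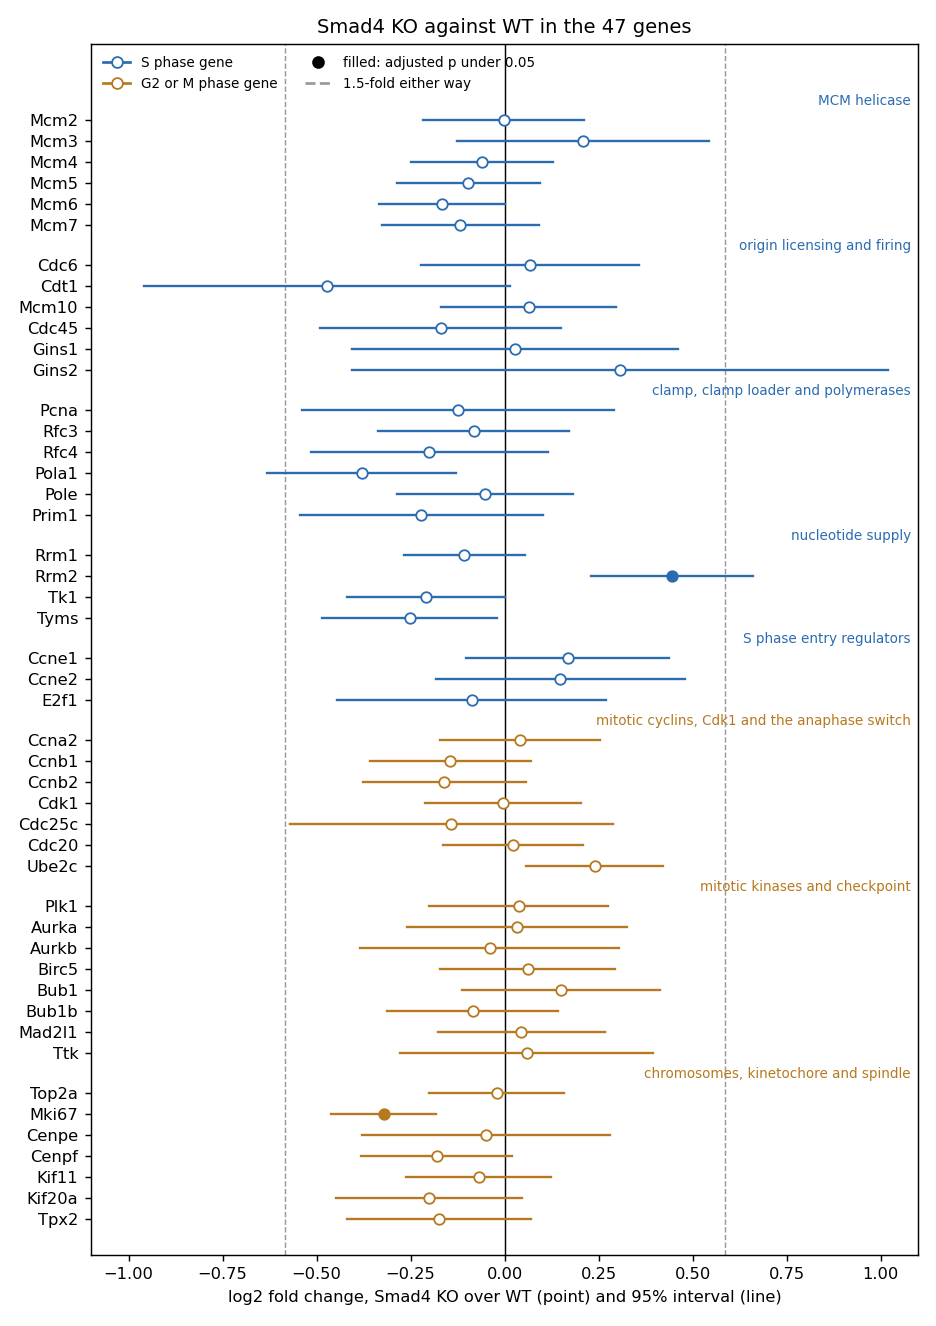
Each point is the log2 fold change of a gene (Smad4 KO over WT) and each line its 95% interval, grouped by role, with S genes in blue and G2 or M genes in brown; filled points passed the test. Rrm2 and Mki67 are filled, and 43 of the 47 lines stay inside the dashed bounds at 1.5-fold.

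Small differences leaned toward lower levels in KO. Of the 47 genes, 30 had a negative and 17 a positive log2 fold change, and the median was -0.061 against 0.0075 over all tested genes. In 22 genes both KO libraries lay below both WT libraries, in 7 they lay above, and in 18 the groups overlapped. Over all tested genes 28.4% lay below and 31.0% above. With DESeq2 size factors 23 lay below and 7 above (all tested genes 29.1% and 30.3%). With upper-quartile normalization the counts were 20 and 7 (28.3% and 31.1%), and with plain library totals 25 and 5 (33.5% and 27.0%). The 47 genes' median lay -0.069 from that of all genes, a distance that a change of scaling leaves nearly as it is by construction. In 26 genes the larger of the differences within a genotype exceeded the difference between the genotypes. The former is the larger gap between single libraries and the latter a gap between group means. The former thus tends to be larger even without a genotype difference, so this count does not weigh the lean against the spread. In 45 genes the 4 libraries stayed within 1.5-fold of each other.

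**Figure D3:**
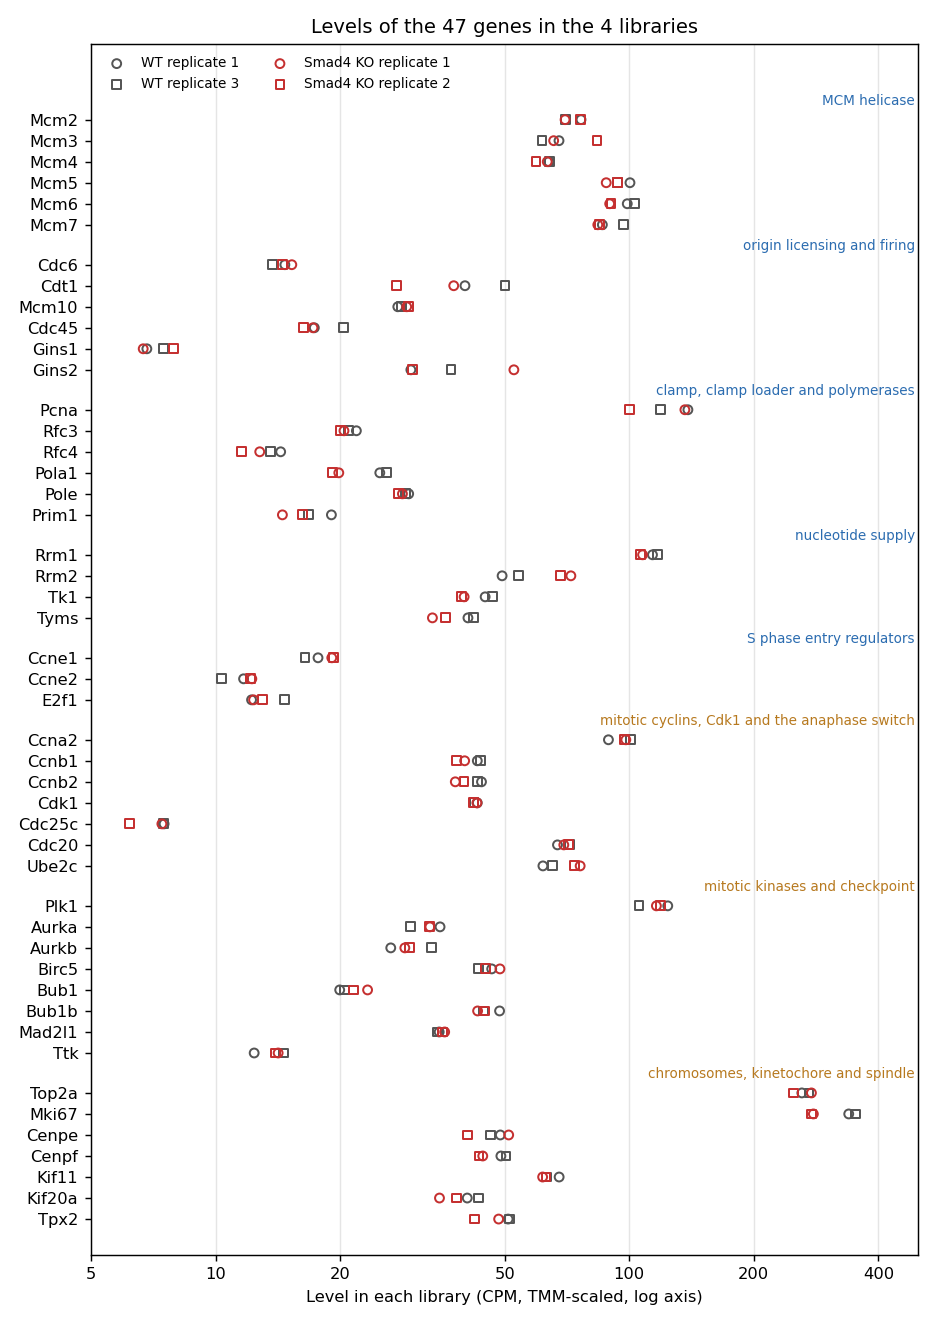
Levels of each gene in the 4 libraries (CPM on a log axis), with WT in grey and Smad4 KO in red. The symbols of a gene mostly touch or overlap. Rrm2, Mki67 and Pola1 are among the genes with a gap between the genotypes. Cdt1, Gins2, Pcna and Mcm3 spread widely within a genotype.

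The S genes and the G2 or M genes stood in nearly the same proportion in each library. Summed over the 25 S genes the level was 1168 and 1173 CPM in WT and 1148 and 1102 CPM in KO, and summed over the 22 G2 or M genes it was 1560 and 1579 CPM in WT and 1509 and 1463 CPM in KO. The ratio of the G2 or M sum to the S sum, which no scaling of libraries can change, was 1.34 and 1.35 in WT and 1.31 and 1.33 in KO. The mean KO sum differed from the mean WT sum by -3.86% for S genes and by -5.30% for G2 or M genes, values with no test. Mki67 alone made most of the latter difference, since without it the G2 or M sum was 1221 and 1226 CPM in WT and 1231 and 1188 CPM in KO. Without Rrm2, the gene that rose, the S sum was 1119 CPM in each WT library and 1076 and 1034 CPM in KO. With Rrm2 and Mki67 left out, the mean KO sum differed by -5.70% for S genes and -1.14% for G2 or M genes. That is the opposite order, also with no test. The median log2 fold change was -0.087 for S genes and -0.031 for G2 or M genes, an order that turned without WT replicate 3 (-0.061 and -0.076). Without KO replicate 2 the medians were -0.098 and 0.0068. Libraries of the same genotype differed by a median absolute log2 value of 0.095 in WT and 0.062 in KO.

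S genes and mitotic genes are known to be switched on by different elements in their promoters. E2F factors bind GC-rich sites at S genes, and the DREAM and MuvB-B-Myb-FoxM1 complexes bind the cell cycle homology region, or CHR, at mitotic genes, often beside CCAAT boxes bound by NF-Y. RefSeq promoter windows (GRCm38.p6), from 250 bases before to 50 after the annotated start, were found for 37 of the 47 genes. The sites searched, on both strands, were TTTCCCGC, TTTCGCGC, TTTGCCGC and TTTGGCGC for E2F, TTTGAA and TTCGAA for the CHR, and CCAAT for NF-Y. No site of 1 kind contains a site of another. The 6 windows shown are those of the 3 genes of each phase with the smallest p that hold a match, 5′ to 3′ on the gene's strand, with matches in capitals. They lie at chr12:24708004-24708303 (plus strand), chrX:93632106-93632405 (minus), chr1:128359656-128359955 (minus), chr7:135716330-135716629 (minus), chr2:164769679-164769978 (plus) and chr1:189688037-189688336 (minus).
Rrm2: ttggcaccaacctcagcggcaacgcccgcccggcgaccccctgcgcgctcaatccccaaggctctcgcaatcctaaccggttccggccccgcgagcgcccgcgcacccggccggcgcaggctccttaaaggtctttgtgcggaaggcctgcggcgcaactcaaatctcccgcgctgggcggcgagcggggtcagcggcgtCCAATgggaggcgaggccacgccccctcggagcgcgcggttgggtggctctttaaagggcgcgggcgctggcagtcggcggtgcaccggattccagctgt
Pola1: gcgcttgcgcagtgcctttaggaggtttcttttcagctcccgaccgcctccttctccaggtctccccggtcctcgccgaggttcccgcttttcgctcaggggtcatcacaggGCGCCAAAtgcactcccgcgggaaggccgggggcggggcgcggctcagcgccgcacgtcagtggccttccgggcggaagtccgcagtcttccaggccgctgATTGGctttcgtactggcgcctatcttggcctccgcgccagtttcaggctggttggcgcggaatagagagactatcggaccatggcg
Mcm6: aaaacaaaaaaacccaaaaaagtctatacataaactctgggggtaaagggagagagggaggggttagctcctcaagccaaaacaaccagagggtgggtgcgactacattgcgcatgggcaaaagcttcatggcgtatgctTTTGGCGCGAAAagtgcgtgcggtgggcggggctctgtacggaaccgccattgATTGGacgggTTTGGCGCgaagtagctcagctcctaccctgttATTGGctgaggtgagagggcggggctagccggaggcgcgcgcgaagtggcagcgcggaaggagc
Mki67: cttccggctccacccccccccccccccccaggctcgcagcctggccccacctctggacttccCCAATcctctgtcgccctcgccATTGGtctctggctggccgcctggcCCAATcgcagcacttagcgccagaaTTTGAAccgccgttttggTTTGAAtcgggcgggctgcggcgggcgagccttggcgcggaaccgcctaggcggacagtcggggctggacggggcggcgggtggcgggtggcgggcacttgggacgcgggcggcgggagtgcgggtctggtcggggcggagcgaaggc
Ube2c: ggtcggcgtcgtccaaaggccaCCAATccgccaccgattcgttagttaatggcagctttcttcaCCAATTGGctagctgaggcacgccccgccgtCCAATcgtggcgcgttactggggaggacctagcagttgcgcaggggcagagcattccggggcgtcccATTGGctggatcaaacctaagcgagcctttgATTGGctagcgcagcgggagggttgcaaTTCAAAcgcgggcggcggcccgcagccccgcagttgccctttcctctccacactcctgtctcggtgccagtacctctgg
Cenpf: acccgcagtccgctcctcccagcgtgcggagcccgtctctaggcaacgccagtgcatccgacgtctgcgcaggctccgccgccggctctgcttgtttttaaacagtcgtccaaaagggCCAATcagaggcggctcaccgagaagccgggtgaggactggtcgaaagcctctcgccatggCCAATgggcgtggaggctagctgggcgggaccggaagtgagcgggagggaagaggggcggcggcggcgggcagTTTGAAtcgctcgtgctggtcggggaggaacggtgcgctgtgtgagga

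The windows differ in which sites they hold. The Mcm6 window holds 3 E2F matches, 2 of which overlap in TTTGGCGCGAAA, and that of Pola1 holds 1. The Mki67 window has 2 copies of TTTGAA downstream of 3 CCAAT boxes. The Ube2c window has 6 CCAAT matches, 2 of which overlap in CCAATTGG, and a CHR close to the start. Cenpf has its CHR just after the annotated start. The Rrm2 window held a CCAAT box and none of the exact E2F or CHR sites searched, which says only that those letters are not in it. Of 21 windows of S genes, 8 (38.1%) held an E2F match, against 1 of 17 (5.88%) of G2 or M genes and 2.26% of all 32851 windows. A CHR match stood in 13 of 17 windows of G2 or M genes (76.5%), in 4 of 21 of S genes (19.0%) and in 19.2% of all windows. A CCAAT match was in 15 of 17 (88.2%), 14 of 21 (66.7%) and 37.4% of windows, respectively. A match is a description of letters and not a measured binding site.

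**Figure D4:**
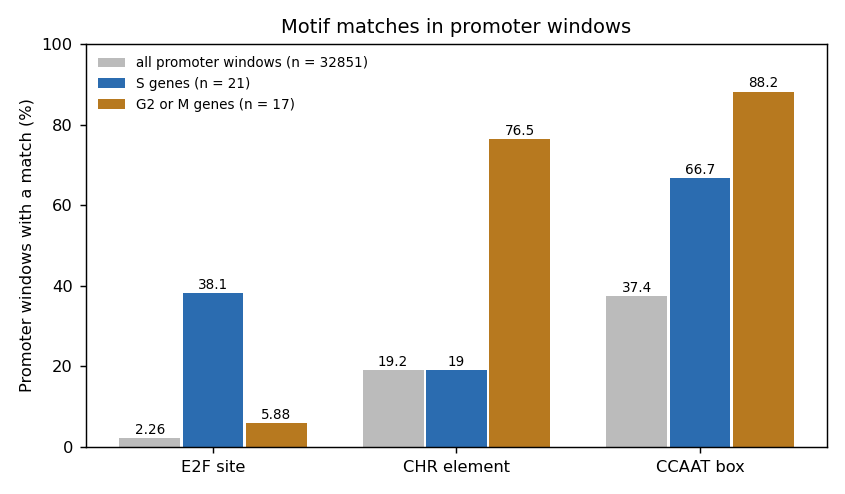
Bars give the percentage of promoter windows with at least 1 match to each kind of site, for all 32851 windows, 21 windows of S genes and 17 windows of G2 or M genes. E2F matches are most frequent in S genes (38.1%) and CHR matches in G2 or M genes (76.5%).

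None of the genes of the replicative helicase passed the test. Values are given for WT replicates 1 and 3 and then for KO replicates 1 and 2. Mcm5 had 100.4 and 93.7 CPM in WT and 88.0 and 93.5 CPM in KO, and Mcm6 had 98.9 and 103 CPM in WT and 89.7 and 90.4 CPM in KO. Both lay below WT in each KO library by margins that did not pass (edgeR adjusted p = 0.460 and 0.168). These proteins are subunits of the ring that unwinds DNA. Mcm3, another subunit, had 67.6 and 61.5 CPM in WT and 65.7 and 83.6 CPM in KO. Its KO libraries differed from each other more than the genotypes did, and the difference did not pass (edgeR adjusted p = 0.368). Summed over the 6 subunits the level was 493 and 490 CPM in WT and 461 and 488 CPM in KO, none passed, and each interval lay within 1.5-fold.

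Factors that load and fire the helicase showed the widest spread. Cdt1, which brings the helicase to origins, had 40.1 and 50.1 CPM in WT and 37.6 and 27.3 CPM in KO. Both KO libraries lay below both WT libraries, but libraries of a genotype were also far apart, and the log2 fold change of -0.47 (SE 0.193) did not pass (edgeR adjusted p = 0.178). Leaving out KO replicate 1 gave -0.72, and leaving out KO replicate 2 gave -0.26. Gins2, a subunit of the GINS part of the active helicase, had 29.7 and 37.1 CPM in WT and 52.6 and 29.9 CPM in KO. KO replicate 1 stood above the other 3 libraries, the groups overlapped, and the change did not pass (log2 fold change 0.31, SE 0.282, edgeR adjusted p = 0.539). Without KO replicate 1 its log2 fold change was -0.15. In the annotation 67.3% of Gins2's exon bases overlap exons of Gse1 on the other strand. No source used here says whether the counting used strand, so reads of these neighbours cannot be told apart. Gse1 had 143 and 151 CPM in WT and 90.5 and 112 CPM in KO and fell, with an edgeR adjusted p of 0.0393. Smaller overlaps, over 29.3% of exon bases for Kif20a (with Cdc23, 36.4 to 43.5 CPM) and 17.4% for Ccne2 (with Ints8, 31.9 to 40.1 CPM), leave the same limit on those genes. For Ube2c, with 22.8% of its exon bases shared, the neighbour Tnnc2 had at most 0.0665 CPM in any library. Cdc6, Mcm10, Cdc45 and Gins1 make up the rest of this role. All 4 had intervals within 1.5-fold.

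Among the genes of the copying machinery, all 6 were lower in KO by mean, and none passed. Pcna, the sliding clamp, had 139 and 119 CPM in WT and 136 and 100.1 CPM in KO. The groups overlapped, with KO replicate 2 lowest (edgeR adjusted p = 0.677). A processed copy, Pcna-ps2, drew 132 to 263 counts per library, so reads may be split between them. Rfc4, a subunit of the complex that loads the clamp, had 14.4 and 13.6 CPM in WT and 12.8 and 11.6 CPM in KO (edgeR adjusted p = 0.355). In the annotation 12.65% of its exon bases overlap exons of the far more abundant Eif4a2 (190 to 205 CPM) on the other strand. This leaves the same limit on Rfc4 as on Gins2. Pola1, the catalytic subunit of the primase-coupled polymerase that starts each strand, had 24.9 and 25.9 CPM in WT and 19.9 and 19.2 CPM in KO. The libraries of each genotype were close together and the groups did not overlap, yet it missed the threshold (log2 fold change -0.38, SE 0.0991, edgeR adjusted p = 0.0631). It passed as fallen with DESeq2 (adjusted p = 0.0227) and in edgeR with plain library totals (adjusted p = 0.0453). Rfc3, Pole and Prim1 had intervals within 1.5-fold.

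Rrm2 was the gene that rose, and it belongs to nucleotide supply. It encodes the small, cell cycle regulated subunit of ribonucleotide reductase, the enzyme that makes the deoxynucleotides for replication, and lies on chromosome 12 at 24708241 to 24714146 on the plus strand (ENSMUSG00000020649, GENCODE M21 on GRCm38). Its level was 49.3 and 54.0 CPM in WT and 72.3 and 68.3 CPM in KO (means of 51.7 ± 3.36 and 70.3 ± 2.78 CPM, SD, n = 2). Both KO libraries stood above both WT libraries, and the rise was 1.36-fold with a 95% interval of 1.17 to 1.58 (log2 fold change 0.44, SE 0.0849, edgeR adjusted p = 0.0261). Its call was lost without WT replicate 1 (edgeR adjusted p = 0.0564), without KO replicate 1 (0.187) and without KO replicate 2 (0.116), with log2 fold changes of 0.37 to 0.51 over all 4 omissions of a library. Rrm1, the large subunit of the same enzyme, did not pass. It had 114 and 117 CPM in WT and 108 and 106 CPM in KO, and its interval of 0.831 to 1.04-fold lay below that of Rrm2 (edgeR adjusted p = 0.328). The other 2 genes of this role make or salvage thymidylate. Tyms had 40.7 and 42.0 CPM in WT and 33.4 and 36.0 CPM in KO, and Tk1 had 44.8 and 46.7 CPM in WT and 39.9 and 39.3 CPM in KO. Neither passed (edgeR adjusted p = 0.139 and 0.168).

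The regulators of entry into S phase were the role with the highest median, at a log2 fold change of 0.15. Ccne1, cyclin E1, had 17.7 and 16.4 CPM in WT and 19.1 and 19.2 CPM in KO, above WT in each KO library by an amount that did not pass (edgeR adjusted p = 0.366). E2f1, a transcription factor of S genes, had 12.2 and 14.7 CPM in WT and 12.4 and 13.0 CPM in KO, so that the KO libraries fell between the WT ones (edgeR adjusted p = 0.742). Ccne2 did not pass either (edgeR adjusted p = 0.520).

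Mitotic cyclins, Cdk1 and the genes of the anaphase switch differed in small ways and in both directions. Ccnb2, a cyclin that activates Cdk1, had 43.9 and 43.1 CPM in WT and 38.0 and 39.9 CPM in KO (edgeR adjusted p = 0.284). Cdc20, which activates the anaphase-promoting complex, had 67.1 and 71.6 CPM in WT and 69.5 and 71.4 CPM in KO, the KO libraries lying inside the WT range (edgeR adjusted p = 0.879). Ube2c, the ubiquitin-conjugating enzyme of that complex, had 61.9 and 65.1 CPM in WT and 76.1 and 73.8 CPM in KO. Here the groups did not overlap, the fold was 1.18 with a 95% interval of 1.04 to 1.34, and the adjusted p of 0.0889 in edgeR missed the threshold. None of the other 4 genes, Ccna2, Ccnb1, Cdk1 and Cdc25c, passed, and Cdk1, named after its values were seen, had 42.9 and 42.1 CPM in WT and 42.8 and 42.0 CPM in KO.

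Mitotic kinases and spindle checkpoint genes were the flattest role by median size of change (absolute log2 fold change 0.052). Plk1, the kinase that drives entry into mitosis, was the most abundant of the 47 genes per length of exon, at 52.9 CPM per kb. It had 124 and 106 CPM in WT and 116 and 119 CPM in KO, with the KO libraries between the WT ones (edgeR adjusted p = 0.845). Birc5, survivin, a subunit of the Aurora B complex, had 46.5 and 43.2 CPM in WT and 48.7 and 44.9 CPM in KO (edgeR adjusted p = 0.720). Bub1, a checkpoint kinase, had 19.96 and 20.5 CPM in WT and 23.3 and 21.6 CPM in KO (edgeR adjusted p = 0.411). None of the 8 genes of this role passed, and all 8 intervals lay within 1.5-fold.

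Mki67, the gene of the Ki-67 antigen, was the gene that fell. It codes for the coat protein of mitotic chromosomes that is stained to count dividing cells, and it lies on chromosome 7 at 135689784 to 135716361 on the minus strand (ENSMUSG00000031004, GENCODE M21 on GRCm38). Its level was 339 and 353 CPM in WT and 279 and 275 CPM in KO (means of 346 ± 9.65 and 277 ± 2.42 CPM, SD, n = 2). Both KO libraries lay below both WT libraries, and KO had 0.800 of the WT level with a 95% interval of 0.726 to 0.881 (log2 fold change -0.32, SE 0.0552, edgeR adjusted p = 0.0189). The call was lost without KO replicate 1 (edgeR adjusted p = 0.139), without KO replicate 2 (0.166) and by edgeR's likelihood ratio test (0.0570), while DESeq2 gave an adjusted p of 6.14e-05. Top2a, the topoisomerase that untangles chromosomes and another common marker of dividing cells, had overlapping groups, with 261 and 272 CPM in WT and 276 and 249.9 CPM in KO (edgeR adjusted p = 0.883). Its interval of 0.870 to 1.12-fold overlaps that of Mki67 only at its lower end. The 7 genes of this role were all negative by log2 fold change, with a median of -0.17. The kinetochore and spindle genes Cenpe, Cenpf, Kif11, Kif20a and Tpx2 did not pass, with edgeR adjusted p from 0.204 to 0.847. Top2a turned positive without WT replicate 3 or without KO replicate 2.

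Per length of exon the levels spanned a wide range. After Plk1 came Pcna at 51.5, Cdc20 at 37.4, Mki67 at 31.0, Top2a at 29.4 and Ccnb2 at 26.9 CPM per kb, and the lowest were Pole and Pola1 at 2.55 and Cdc25c at 1.46 CPM per kb. These use the union of annotated exons, which overstates the length of the expressed transcript where many isoforms are annotated. Plk1 and Pcna were not separated beyond their spread. Plk1 had 56.4 and 48.0 CPM per kb in WT and 52.9 and 54.2 in KO, and Pcna had 57.8 and 49.7 in WT and 56.8 and 41.7 in KO, so that Pcna was the higher in all but KO replicate 2. In each WT library Mki67 stood above Top2a (33.7 and 35.1 against 29.0 and 30.2 CPM per kb). In KO their order was reversed, with 27.7 and 27.3 CPM per kb for Mki67 and 30.6 and 27.7 CPM per kb for Top2a.

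Other genes of the same processes, on lists made beside the 47, were described by counts. Of 40 other replication genes, such as origin recognition, polymerase δ and ligase genes, none rose, 2 fell (5.00% called, against 15.2% of all tested genes) and 38 did not pass in edgeR. None rose with DESeq2 or limma-voom either (all tested genes 12.1% and 9.52%). At an unadjusted p under 0.05 in edgeR none was higher and 4 were lower, against 16.6% and 13.3% of all tested genes. Their median log2 fold change was -0.030. The fallen genes were Chaf1b, a subunit of the histone chaperone CAF-1 (26.9 and 27.7 CPM in WT, 19.4 and 15.9 CPM in KO, a log2 fold change of -0.63, edgeR adjusted p = 0.0342), and the replication fork gene Timeless (18.7 and 22.6 CPM in WT, 13.1 and 14.4 CPM in KO, a log2 fold change of -0.58, edgeR adjusted p = 0.0498). Chaf1b lost its call whichever library was left out (edgeR adjusted p of 0.0561 to 0.173), and Timeless without WT replicate 3, KO replicate 1 or KO replicate 2, with DESeq2 size factors and without the 20 most abundant genes (up to 0.236). The polymerase δ gene Pold1 had 47.8 and 50.7 CPM in WT and 35.0 and 42.0 CPM in KO, and the CAF-1 gene Chaf1a had 43.1 and 42.3 CPM in WT and 37.1 and 35.2 CPM in KO. Neither passed (edgeR adjusted p = 0.111 and 0.139).

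Of 58 other mitosis genes none rose, 1 fell (1.72% called) and 57 did not pass in edgeR, with a median log2 fold change of -0.083. Unadjusted, 3 were higher and 5 lower at a p under 0.05 in edgeR, against 16.6% and 13.3% of all tested genes. DESeq2 called none as risen and 4 as fallen, against 12.1% and 9.62% of all tested genes. Limma-voom called 2 as fallen (all tested genes 7.15%) and edgeR's likelihood ratio test 0 (7.14%), with none risen by either. The condensin subunit Ncapd2 fell (101 and 107 CPM in WT, 85.1 and 80.4 CPM in KO, a log2 fold change of -0.33, edgeR adjusted p = 0.0389). It lost its call without WT replicate 3, KO replicate 1 or KO replicate 2 and by the likelihood ratio test (adjusted p up to 0.256). Cdc25b, a phosphatase that activates Cdk1, had 35.6 and 38.2 CPM in WT and 28.6 and 27.7 CPM in KO and missed the threshold (edgeR adjusted p = 0.0530). It passed as fallen under 5 of the 13 alternatives, among them DESeq2 (adjusted p = 0.00819) and limma-voom (0.0421). Cdca3 and Kif14 also missed it in edgeR (adjusted p = 0.0724 and 0.0753) and passed with DESeq2 (0.0235 and 0.0437).

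The genes that set the pace of the cycle were called about as often as all tested genes. The list held cyclins, Cdks, inhibitors, Rb and E2F family genes, and other regulators such as Wee1, Skp2 and Tob1. Of its 41 tested genes, 2 rose, 4 fell and 35 did not pass, so that 14.6% were called against 15.2% of all tested genes. Their median log2 fold change was -0.042. Ccnd3, cyclin D3, fell 2.72-fold, from 80.8 and 77.2 CPM in WT to 27.1 and 30.9 CPM in KO (edgeR adjusted p = 0.000986). Ccnd1, cyclin D1, rose 1.34-fold, from 240.1 and 258 CPM to 336 and 331 CPM (edgeR adjusted p = 0.0116). The D cyclins activate Cdk4 and Cdk6, which start the release of E2F factors, and these 2 changed in opposite directions. Among the inhibitors, Cdkn1b, p27, fell 1.43-fold, from 71.5 and 77.6 CPM to 49.1 and 54.9 CPM (edgeR adjusted p = 0.0209). Cdkn1c, p57, rose 2.08-fold, from 4.92 and 6.45 CPM to 11.5 and 12.1 CPM (edgeR adjusted p = 0.0197). The other 2 fallen genes, named after their values were seen, were the inhibitor Cdkn2c (log2 fold change -0.42, edgeR adjusted p = 0.0493) and the antiproliferative gene Tob1 (log2 fold change -0.30, edgeR adjusted p = 0.0429). Ccnd3 kept its call whichever library was left out. Ccnd1, Cdkn1b and Cdkn1c were no longer called when KO replicate 1 or KO replicate 2 was left out, with edgeR adjusted p up to 0.154. Cdkn2b and Cdkn1a, which TGF-β is known to induce and which were also named after their values were seen, did not pass. The part of TGF-β in the values of any inhibitor was not tested. Cdkn2b, p15, had 47.03 and 47.6 CPM in WT and 48.3 and 47.02 CPM in KO with a 95% interval of 0.879 to 1.16-fold, and Cdkn1a, p21, had 204 and 179 CPM in WT and 209 and 214 CPM in KO with an interval of 0.962 to 1.27-fold (edgeR adjusted p = 0.948 and 0.296).

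**Figure D5:**
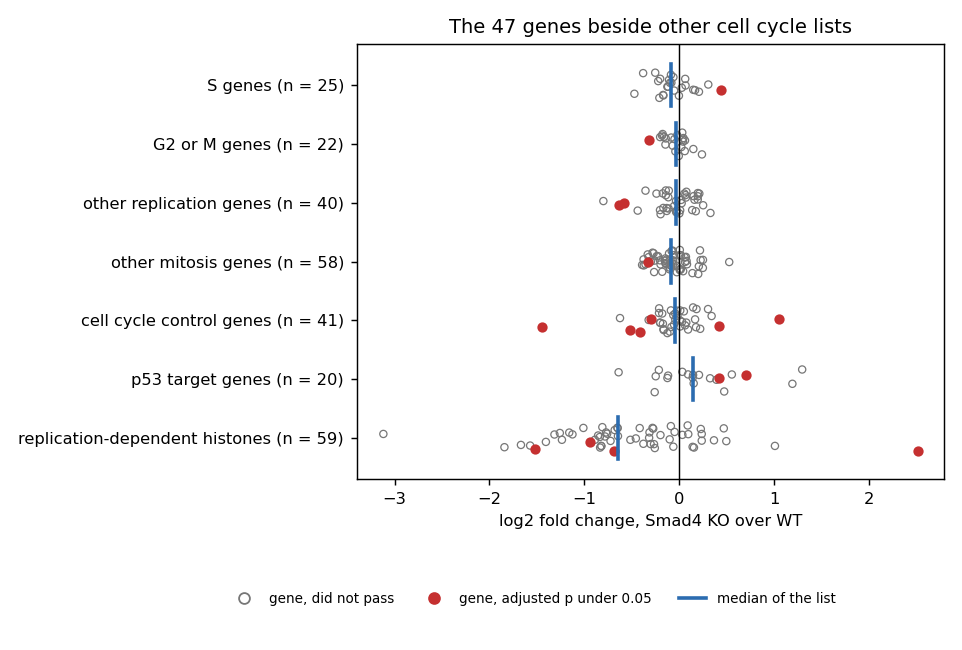
Points are the log2 fold changes (Smad4 KO over WT) of the tested genes of each list, red where the adjusted p was under 0.05, and blue bars are medians; the vertical scatter within a list has no meaning. The replication and mitosis lists sit close to 0, Ccnd3 stands out at -1.45 among the control genes, and the histone list has a median of -0.65.

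Targets of p53, which are switched on when DNA is damaged or replication stalls, had a median log2 fold change of 0.15. The list of 20 genes also held Trp53, the p53 gene itself, which the median and the counts include. Of the 20 tested, 2 rose, none fell and 18 did not pass in edgeR, so that 10.0% were called against 15.2% of all tested genes. Unadjusted, 9 were higher and 1 lower at a p under 0.05, against 16.6% and 13.3% of all tested genes. DESeq2 called 6 as risen and none as fallen, against 12.1% and 9.62% of all tested genes. Limma-voom called 3 as risen (all tested genes 9.52%) and edgeR's likelihood ratio test 2 (10.7%), with none fallen by either. Plk2 rose 1.63-fold (13.2 and 13.8 CPM in WT, 22.4 and 21.9 CPM in KO, edgeR adjusted p = 0.0118) and Mdm2, the ubiquitin ligase of p53, rose 1.34-fold (37.1 and 36.4 CPM in WT, 48.6 and 49.9 CPM in KO, edgeR adjusted p = 0.0273). When KO replicate 1 or KO replicate 2 was left out neither was called, and Mdm2 was not called without WT replicate 3 (edgeR adjusted p up to 0.180). Trp53 itself had 56.8 and 58.7 CPM in WT and 76.2 and 68.5 CPM in KO, and the death receptor Tnfrsf10b had 11.3 and 11.9 CPM in WT and 16.9 and 15.4 CPM in KO. Neither passed in edgeR (adjusted p = 0.0620 and 0.0589), and both passed as risen with DESeq2 (0.0212 and 0.0343).

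Genes of the histone clusters, which supply new chromatin in S phase, were lower in KO by summed level. Many are near-identical copies, so their counts are uncertain. In edgeR 1 of the 59 tested genes rose and 3 fell (6.78% called, against 15.2% of all tested genes), and 55 did not pass. Log2 fold changes were negative in 46 of the 59, against 49.0% of all tested genes, with a median of -0.65. Single genes were measured loosely, with mean levels down to 0.16 CPM. The median half-width of their 95% intervals was 1.40 in log2 fold change. In 1 of the 59 the interval lay within 1.5-fold, against 41.4% of all tested genes. Their sum was 337 and 385 CPM in WT and 229 and 237 CPM in KO. The linker histone Hist1h1c was the most abundant of them and fell 1.92-fold (175 and 214 CPM in WT, 98.0 and 105 CPM in KO, edgeR adjusted p = 0.00624). It carried most of the difference in the sum, which without it was 162 and 171 CPM in WT and 131 CPM in each KO library. Hist1h1e fell 2.88-fold and Hist2h2be 1.61-fold (edgeR adjusted p = 0.0231 and 0.0432), calls that were lost without KO replicate 1, without KO replicate 2 or without WT replicate 1, and for Hist2h2be also without WT replicate 3 (up to 0.219). Hist1h2be rose 5.71-fold from a low level (0.882 and 1.35 CPM in WT, 6.49 and 6.22 CPM in KO, edgeR adjusted p = 0.00541). The nuclear RNA Malat1 took 0.0605% and 0.0813% of counts in WT and 0.0305% and 0.0265% in KO, and mitochondrially encoded genes 4.51% and 4.16% in WT and 5.40% and 5.22% in KO. The part of RNA composition in the histone values was not tested.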

How the data were processed

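The authors deposited raw gene counts for 31227 Ensembl IDs and 4 libraries of random-primed total RNA. HISAT2 2.1.0, SAMtools 1.9 and StringTie 1.3.3b were run on GRCm38 (mm10), per the submitters' processing notes. Not given in the sources used here are the step that made the counts, the annotation release and the strand setting. Symbols, positions and exon lengths came from GENCODE M21, which named 31207 IDs.

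Genes kept by filterByExpr (15838) were TMM-normalized and tested with edgeR 4.0.16 (R 4.3.3), quasi-likelihood F test, genotype as the only term, with Benjamini-Hochberg adjustment over all tested genes and a threshold of 0.05. The SE is the log2 fold change divided by the square root of F, and the 95% interval uses the fit's degrees of freedom. The fit was tested on simulated data. Promoter windows came from RefSeq.

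The 47 genes, the lists and the tests were chosen with earlier results of these data known. Named genes are those that passed and, per role, the 2 with the highest CPM per kb and the 1 with the largest change, and per further list the 4 with the smallest p (cell types: the highest level). Tyms, Tk1 and other genes outside this rule were named after their values were seen. Alternatives were other scalings, filters and tools (DESeq2 1.42.0, limma-voom 3.58.1, edgeR's likelihood ratio test), a fit without the 20 most abundant genes, and fits that omit each library in turn (the lone library of an arm is assumed to vary like the other arm). Sums without a single gene (Mki67, Rrm2, Ly6g, Cd14, Hist1h1c) were added after the values were seen.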

Additional observations from a re-analysis of the deposited data

How the results depend on the processing

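No paired analysis was possible because the genotypes share 1 replicate number (1 and 3 in WT, 1 and 2 in KO). The count of called genes over the whole table was 2412 and ran from 975 to 2573 when each library was left out in turn (978 without KO replicate 1, 975 without KO replicate 2). The count of risen genes among the 47 (1, Rrm2) was 0 to 1 in those fits, and that of fallen genes (1, Mki67) was 0 to 1. In the fits with no risen gene, 1 or 2 of the 47 were higher at an unadjusted p under 0.05, and in those with no fallen gene 1 or 4 were lower. Mki67 and Pola1 were called as fallen, 2 genes, with library totals and by the DESeq2 Wald test. By edgeR's likelihood ratio test 0 were called as fallen, with 3 lower at an unadjusted p under 0.05. The cause of these changes was not tested, other than that fits without a library hold fewer samples. Over all 13 alternatives no gene of the 47 other than Rrm2, Mki67 and Pola1 was called.

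With each library left out in turn, Cdc20 ran from -0.037 to 0.073, E2f1 from -0.23 to 0.054, Gins2 from -0.15 to 0.66, Pcna from -0.36 to 0.081, Plk1 from -0.072 to 0.14 and Top2a from -0.089 to 0.048. Log2 fold changes turned sign in 15 of the 47 genes under some alternative, none of them called. With library totals Cdc20 was -0.030 and Plk1 -0.015. Top2a was 0.0099 without WT replicate 3. The median of the G2 or M genes (-0.031) was 0.0068 without KO replicate 2 and -0.076 without WT replicate 3.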
